A study of Mus musculus with 9 samples.

Results

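The growth hormone, STAT5 and IGF axis was examined in mouse liver through 10 genes: Ghr, Jak2, Stat5a, Stat5b, Igf1, Igfals, Igfbp2, Cish, Socs2 and Bcl6. The members are the probe sets annotated to these symbols, 24 of the 45101 probe sets on the array. All 10 genes were measured, among 18193 genes that had a probe set of their own. Liver RNA came from male mice aged 14 weeks on standard chow. The 5 control samples carried the intact leptin receptor gene (C57BL/KSlepr+/+, called BKS), and the 4 others were littermates with the db mutation of that gene (BKS.Cg-Leprdb, called db/db). The db/db animals were kept until they were obese and diabetic with fatty liver, so the receptor mutation, obesity and diabetes cannot be told apart. The study asks about peroxisomes and mitochondria in these livers, and the labels name no treatment. Neither the time of day nor the feeding state at collection is stated in the labels.

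Growth hormone from the pituitary binds its receptor on hepatocytes and activates the kinase JAK2, which phosphorylates STAT5A and STAT5B. These transcription factors enter the nucleus and induce, among others, the growth factor gene Igf1, its serum carrier Igfals and the feedback inhibitors Cish and Socs2, while they repress Bcl6. In male rodents the hormone is released in pulses, and liver STAT5 activity rises and falls with them. BCL6 is a repressor that can occupy STAT5 sites, and it is known as a male-biased factor that holds down female-biased liver genes.

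STAT5 binds the motif TTCNNNGAA, which reads the same on both strands. To show where it lies in the genes measured here, RefSeq windows (build GRCm38.p6) from 250 bases before to 50 after each annotated start were searched. Windows were found for 9 of the 10 genes (16 windows in all), and 5 windows of 3 genes held 8 matches. No window was available for Socs2, so it was not searched. The motif was found in 8.3% of all 32851 windows. The stretches below are written from 5′ to 3′ on the strand of the gene, with the motif in capitals.
Cish, chr9:107296654-107296683, plus strand: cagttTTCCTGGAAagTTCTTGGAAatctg
Igfals, chr17:24877598-24877626, plus strand: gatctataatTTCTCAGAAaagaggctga
Igfals, chr17:24878163-24878191, plus strand: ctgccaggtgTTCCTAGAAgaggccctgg
Bcl6, chr16:23988952-23988980, minus strand: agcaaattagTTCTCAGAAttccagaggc
Bcl6, chr16:23981433-23981461, minus strand: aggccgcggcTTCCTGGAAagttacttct
Bcl6, chr16:23981387-23981415, minus strand: ggcaggagtgTTCTGTGAAatccttagag
Bcl6, chr16:23981353-23981381, minus strand: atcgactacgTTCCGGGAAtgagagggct
The Cish stretch holds 2 copies side by side, the first beginning at base 1 of the transcript. The second Igfals stretch and the last 3 of Bcl6 precede alternative starts of those genes. A match describes the letters in these windows and does not show that STAT5 was bound.

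Levels of 5 of the 10 genes fell in db/db liver, with 1 probe set a gene (limma, Benjamini-Hochberg adjusted p under 0.05 over all genes), against 2.60% of all genes lower. None rose, against 2.89% of all genes. The genes that fell were Ghr, Igfbp2, Cish, Socs2 and Bcl6. For 4 of them, all but Cish, every db/db array lay below every BKS array, which held for 4.42% of all genes. The median log2 fold change was -0.60 over the members and 0.00 over all genes. Of the 5 members that were not called, 3 had an unadjusted limma p under 0.05. Among all 18193 genes, called or not, 3208 had such a p-value. Fold changes are differences of group means on the scale log2(signal + 16) after quantile normalization, which compresses the changes of dim probe sets. Signals quoted for single arrays are the deposited linear values. As RNA came from whole tissue, fewer cells of a type and less RNA per cell cannot be told apart.

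The array medians lay between 67.4 and 110.8. The arrays fell into sets by the control signal for 18S ribosomal RNA, a property the labels do not name: it averaged 13.9 to 26.8 on BKS 1, 2 and 3 and db/db 1 and 2 (low 18S), and 1114 to 9835 on BKS 4 and 5 and db/db 3 and 4 (high 18S). The ratio of 3′ to 5′ Actb control signal, a sign of RNA or labelling quality, was 0.70 to 1.73 on the log2 scale where 18S was low and 1.67 to 2.57 where it was high. Between genotypes it overlapped (0.75 to 2.57 in BKS and 0.70 to 1.99 in db/db). Of 6 measured hepatocyte markers none was called, and their summed signal overlapped (168398 to 321325 in BKS and 158205 to 260461 in db/db). The 10 members had a median log2 fold change of -0.60 (-0.54 within the low and -0.86 within the high 18S arrays). Kupffer cell markers had a median of -0.55 with 0 of 7 called (-0.51 within the low and -0.10 within the high 18S arrays). Their summed signal was 12766 to 14840.5 in BKS and 7789.9 to 8299 in db/db where 18S was low, without overlap, and 5549 and 5492 in BKS and 3231 and 7002 in db/db where it was high. Cholangiocyte markers had a median of -0.77 with 0 of 4 called and a summed signal of 562 to 723 in BKS and 359 and 538 in db/db where 18S was low, also without overlap. Where it was high they read 475 and 599 in BKS and 554 and 219.8 in db/db. The part of these cells in the members' values was not tested. The labels do not say that each sample came from a different mouse, so p-values reflect the variation among these 9 samples, which may be technical.

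**Figure D1:**
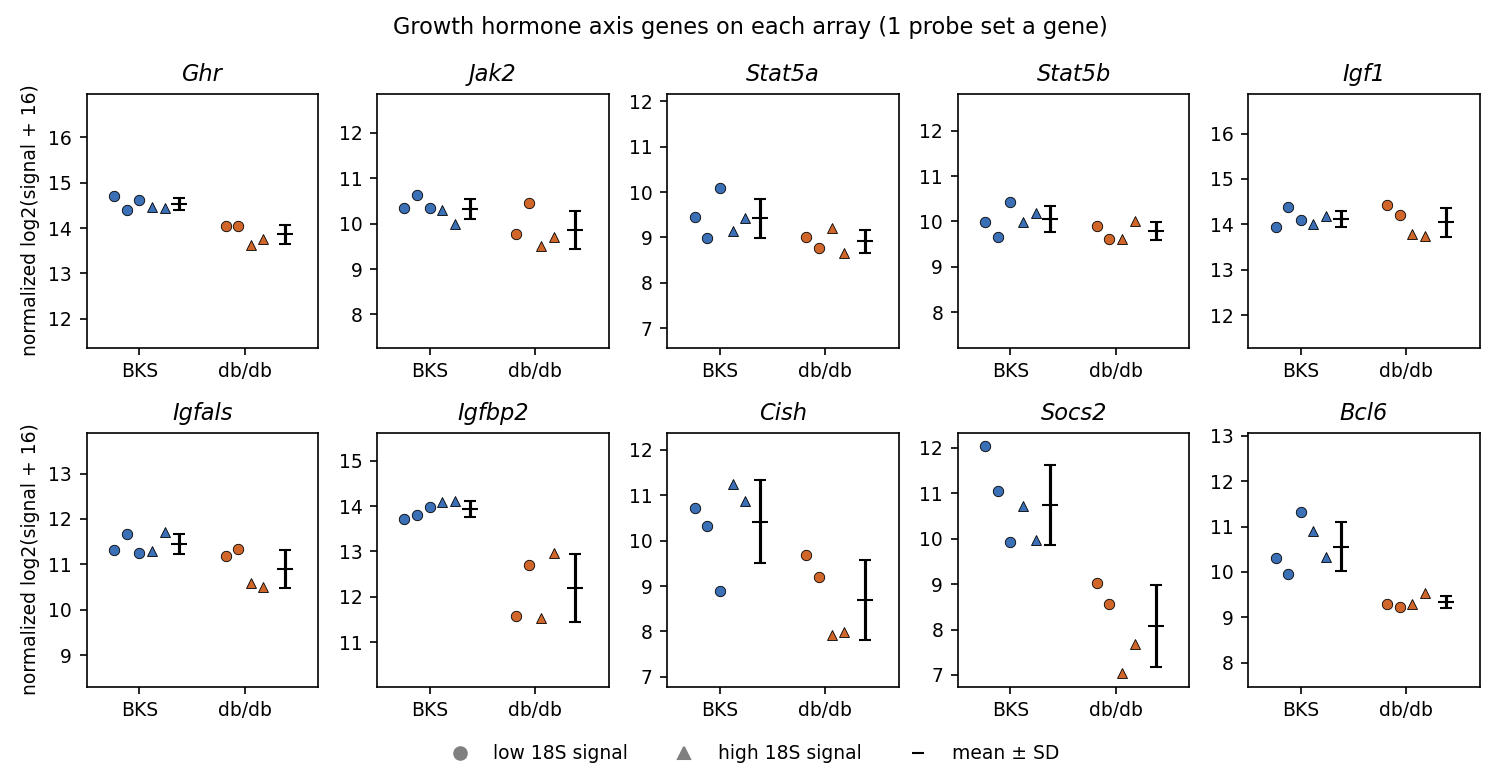
Normalized log2(signal + 16) of the brightest probe set of each gene on 9 arrays, 5 BKS (blue) and 4 db/db (orange). Circles are arrays with low and triangles with high 18S control signal, bars give the mean ± SD of each group, and each panel spans the same log2 range. The groups are apart for Ghr, Igfbp2, Socs2 and Bcl6 and overlap for the other genes, with Cish overlapping through BKS 3.

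Ghr, the receptor itself, fell. Its brightest probe set (1417962_s_at) read 27983, 17851, 21613.5, 29711 and 25021 on BKS 1 to 5. On db/db 1 to 4 it read 14993.5, 14383, 14534 and 14990.5. No db/db array reached the lowest BKS array, and the db/db values lay close together. On the normalized scale the means were 14.52 ± 0.13 (SD, n = 5) and 13.86 ± 0.21 (SD, n = 4), a log2 fold change of -0.66 (SE 0.12, limma adjusted p = 0.00494), or 1.58-fold lower. In the fit over all 45037 probe sets, of which 1.19% were called lower, this probe set was also called (adjusted p = 0.00844). Probe set 1451501_a_at had a log2 fold change of -0.42 (SE 0.12, adjusted p = 0.0920). Probe set 1451871_a_at was at -0.16 (SE 0.39, adjusted p = 0.920). It read 1327 to 3718 where 18S was low and 1001 to 1929 where it was high.
The call of Ghr held in all 9 fits that left out 1 array. It was lost under median centring (adjusted p = 0.269), without the intensity trend (0.0648), with averaged probe sets (0.311), with the probe set of largest variance (0.913) and in the low 18S arrays alone (0.114). Over all alternatives its adjusted p ran from 0.00135 to 0.913.

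Jak2, the kinase bound to the receptor, was not called. Its brightest probe set (1421066_at) read 990.1 to 1616 in BKS, and in db/db it read 884, 1400, 667.5 and 798. Only db/db 2 lay within the BKS range. The log2 fold change was -0.46 (SE 0.19, 95% interval -0.88 to -0.05, limma adjusted p = 0.221). It was -0.66 without db/db 2, which passed the threshold (adjusted p = 0.0451), and over all alternatives the adjusted p ran up to 0.722. The other probe set (1421065_at) was at 0.18 (SE 0.22), with the opposite sign.

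The STAT5 genes did not pass the test either. Stat5a on 1421469_a_at read 689, 534, 1113, 507 and 653 on BKS 1 to 5, and 506, 441, 541 and 362 on db/db 1 to 4. The groups overlapped, with BKS 3 the highest array. The log2 fold change of Stat5a was -0.51 (SE 0.22, 95% interval -0.99 to -0.02, limma adjusted p = 0.254). Its other probe set (1450259_a_at) was at 0.14 (SE 0.40).
Stat5b, the form that dominates in liver, read 833 to 1402 in BKS and 729 to 1007 in db/db on 1422103_a_at, again with BKS 3 the highest. Its log2 fold change was -0.26 (SE 0.17, 95% interval -0.63 to 0.11, limma adjusted p = 0.482), and on 1422102_a_at it was -0.06 (SE 0.27). These intervals leave room for a moderate loss of either message. Phosphorylation, through which the STAT5 proteins are activated, is not measured by an RNA array.

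Igf1, the main secreted growth factor of the axis, was not called on any of its 4 probe sets. The brightest (1452014_a_at) read 15248 to 21213 in BKS and 14818 to 18718 in db/db, and the groups overlapped widely. Its log2 fold change was -0.08 (SE 0.15, 95% interval -0.41 to 0.24, limma adjusted p = 0.841). The difference of its group means was 0.17 within the low and -0.33 within the high 18S arrays. The other probe sets lay lower, at -0.26, -0.49 and -0.41. On 1437401_at the BKS arrays read 14613.5, 11807, 9597, 13311 and 11433, and the db/db arrays 9052, 7611, 9087 and 9143. No db/db array reached the lowest BKS array there (log2 fold change -0.49, SE 0.13, limma adjusted p = 0.0639 over all probe sets, unadjusted p = 0.00203). That probe set passed with 18S as a block, with the replicate number as a block, with robust eBayes and with dim probe sets left out.

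Igfals encodes the acid-labile subunit, which keeps IGF1 in a large complex in serum. Its probe set (1422826_at) read 2460, 3165, 2408, 2474 and 3387.5 on BKS 1 to 5, and 2364.5, 2584, 1463 and 1438 on db/db 1 to 4. The low values were those of db/db 3 and 4, the high 18S arrays, while db/db 2 lay within the BKS range. The log2 fold change was -0.54 (SE 0.19, 95% interval -0.94 to -0.14, limma adjusted p = 0.122). Within the low 18S arrays the group means differed by -0.15 and within the high by -0.96, where a fit of those arrays alone passed the threshold (adjusted p = 0.0340). The highest adjusted p over the alternatives was 0.742.

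Igfbp2, a serum IGF-binding protein made in liver, fell with the smallest adjusted p of the 10 genes. Its probe set (1454159_a_at) read 12924, 12281, 14652.5, 21528 and 19469.6 on BKS 1 to 5. It read 3087.5, 6186, 2953 and 8679.9 on db/db 1 to 4. The db/db arrays were all lower but varied among themselves, with db/db 2 and 4 above db/db 1 and 3. Means were 13.94 ± 0.17 (SD, n = 5) and 12.20 ± 0.75 (SD, n = 4) on the normalized log2 scale, a fold change of -1.74 (SE 0.26, limma adjusted p = 0.00141), or 3.34-fold lower. It was -1.70 within the low and -1.84 within the high 18S arrays. In the low 18S arrays by themselves, Igfbp2 was the only 1 of the 10 genes called with 1 probe set a gene. A fit of the high 18S arrays alone gave adjusted p = 0.0544 over all genes, while the same probe set was called there in the fit over all probe sets. The call was lost in no other alternative (adjusted p down to 4.86e-04).

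Socs2, a feedback inhibitor of the growth hormone receptor and a direct STAT5 target, had the largest change of the 10. Its brightest probe set (1449109_at) read 4007.5, 2168, 999 (BKS 3), 1633 and 972 (BKS 5) in BKS. In db/db it read 518, 378, 115 and 157.5. The highest db/db array was thus below the lowest BKS array, although the BKS arrays themselves spread widely. The means were 10.75 ± 0.87 (SD, n = 5) and 8.08 ± 0.89 (SD, n = 4), a log2 fold change of -2.67 (SE 0.45, limma adjusted p = 0.00324), or 6.36-fold lower. It was -2.21 within the low and -3.00 within the high 18S arrays. A second probe set (1418507_s_at) was called at -2.08 (SE 0.39, adjusted p = 0.00879). Its BKS arrays read 626 to 2791 and its db/db arrays 154 to 501.
The remaining 4 Socs2 probe sets read 526.9 or less on every array, had fold changes of -0.44 to -1.32 and were not called with all 9 arrays. One of them, 1446085_at, was called in the low 18S arrays alone, where it read 265 to 527 in BKS and 32.4 and 90 in db/db. In the high 18S arrays it read 26 and 9.1 in BKS and 26.1 and 41.4 in db/db. With the mean of all 6 probe sets Socs2 stood at -1.37. The call of the brightest probe set was lost in the low 18S arrays alone (adjusted p = 0.0545) and held in the other 22 alternatives (adjusted p down to 1.72e-05).

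Cish, the other classical STAT5-induced inhibitor and the gene with the paired motifs shown above, was lower but varied most. Its probe set (1448724_at) read 1639, 1317, 496, 2417 and 1846 on BKS 1 to 5, and 824.5, 589, 207 and 207 on db/db 1 to 4. BKS 3 lay below db/db 1 and 2, so the groups overlapped, and db/db 3 and 4 were the lowest arrays. The residual SD of Cish was 0.90 on the log2 scale, beside 0.88 for Socs2 and 0.17 for Ghr. The log2 fold change was -1.72 (SE 0.46, limma adjusted p = 0.0452), or 3.30-fold lower. Adjusted over all probe sets the same probe set missed the threshold (adjusted p = 0.0589). The group means differed by -0.55 within the low and by -3.12 within the high 18S arrays, a contrast between the sets that was not tested.
The call of Cish was lost in 7 of the 9 fits that left out 1 array, those without BKS 1, 2, 4 or 5 or db/db 2, 3 or 4 (adjusted p from 0.0594 to 0.146, log2 fold change from -1.46 to -1.89). It held without BKS 3 (adjusted p = 0.00623) and without db/db 1. It was also lost with averaged probe sets (0.0707; Cish itself has 1), without the intensity trend (0.144), with robust eBayes (0.124), with array weights (0.136) and in the low 18S arrays alone (0.624), 12 of the 23 alternatives in all. Over all alternatives the adjusted p ran from 3.94e-04 to 0.624.

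Bcl6, the repressor, fell as well. Its brightest probe set (1421818_at) read 1238, 1018, 2516, 1877 and 1243 on BKS 1 to 5. It read 625, 606.5, 574 and 716 on db/db 1 to 4. The db/db arrays lay close together, all below the BKS arrays. Means were 10.56 ± 0.54 (SD, n = 5) and 9.34 ± 0.14 (SD, n = 4), a log2 fold change of -1.22 (SE 0.24, limma adjusted p = 0.00803), or 2.33-fold lower. The difference was -1.25 within the low and -1.20 within the high 18S arrays. The other probe set (1450381_a_at) read 157 to 440 in BKS and 101.5 to 263 in db/db and was at -0.29 (SE 0.32, adjusted p = 0.790).
The call of Bcl6 held in all 9 fits that left out 1 array. It was lost with averaged probe sets (log2 fold change -0.75, adjusted p = 0.110), without the intensity trend (0.0508) and in the low 18S arrays alone (0.111), and the lowest adjusted p was 0.00314.

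**Figure D2:**
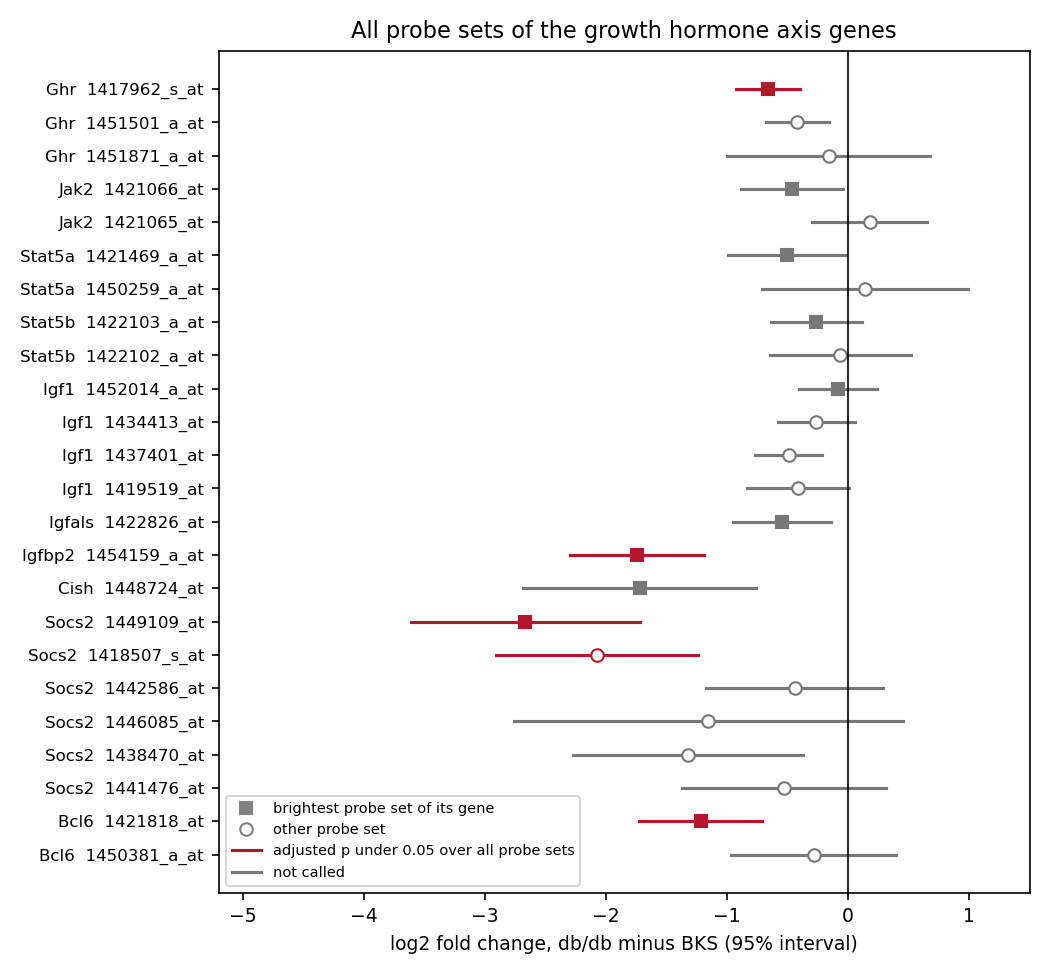
Log2 fold change (db/db minus BKS) with its 95% interval for all 24 probe sets of the 10 genes, from the fit over all probe sets. Squares mark the brightest probe set of a gene, open circles the others, and red those with adjusted p under 0.05 over all probe sets. The 5 red probe sets, of Ghr, Igfbp2, Socs2 and Bcl6, lie below 0, and Jak2 and Stat5a each have probe sets on both sides of 0.

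Of the 24 probe sets, 5 fell and none rose (limma, adjusted over 45037 probe sets, of which 1.19% were lower and 1.58% higher). They belong to Ghr, Igfbp2, Bcl6 and, with 2 probe sets, Socs2. The other 19 were not called, and 2 of these, of Jak2 and Stat5a, had a positive fold change.

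**Figure D3:**
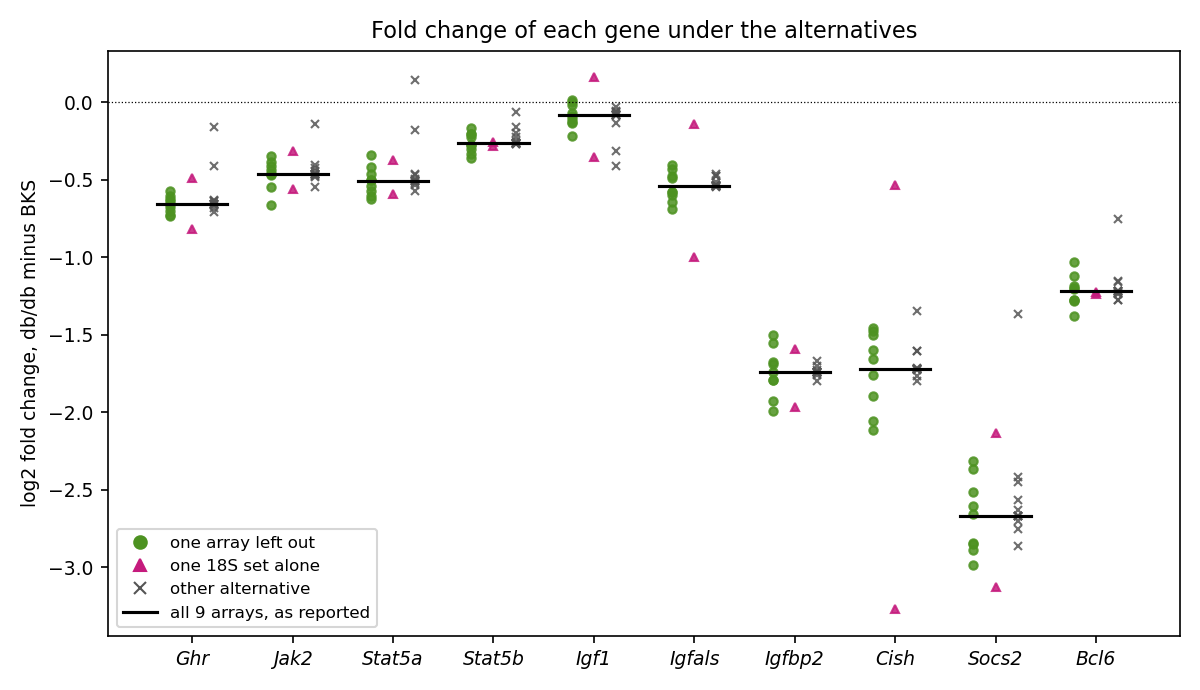
Log2 fold change (db/db minus BKS) of each gene under 23 alternatives, with the reported value as a black line. Green circles leave out 1 array, pink triangles use the arrays of 1 18S set alone and grey crosses change another choice. Every point of Ghr, Igfbp2, Cish, Socs2 and Bcl6 is below 0, and the pink points of Cish lie furthest apart.

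Among other genes of IGF binding the calls were rises. Of 10 measured genes (ligands, binding proteins, binding protein proteases and Stc2) 2 rose and none fell, against 2.89% and 2.60% of all genes. The list had a median log2 fold change of 0.54 (0.22 within the low and 0.81 within the high 18S arrays). Igfbp3, the main serum partner of IGF1 and IGFALS, read 147.5 to 332 in BKS and 403 to 489 in db/db (log2 fold change 1.13, SE 0.24, limma adjusted p = 0.0130). The groups did not overlap. The call was lost without db/db 3 (adjusted p = 0.0525), where 18S was low alone (0.200) and where it was high alone (0.0949), and the lowest adjusted p over the alternatives was 0.00528. Igfbp5, a binding protein of connective tissue cells, read 213 to 448 in BKS and 433 to 1382 in db/db (1.44, SE 0.34, adjusted p = 0.0231). The groups overlapped. It was lost without BKS 1 or 3 or db/db 1 or 3 (adjusted p from 0.0537 to 0.0786), when the most variable probe set stood for each gene (0.242), without the trend (0.0819) and in the high 18S arrays alone (0.379), with 0.0101 the lowest over the alternatives.
Igfbp1, an insulin-repressed binding protein, missed the threshold at 1.36 (SE 0.69, adjusted p = 0.339). Stellate cell markers, of which 0 of 6 were called, had a median of 0.78, with 0.50 within the low and 1.34 within the high 18S arrays. Their summed signal was 8019 to 11868 in BKS and 10359.9 and 13817 in db/db where 18S was low, and 2563 and 2998 in BKS and 9087 and 5152 in db/db where it was high. The groups overlapped in the low and were apart in the high 18S arrays, and the marker medians were higher in the same set as those of the IGF binding list. Their part in the values of Igfbp3 and Igfbp5 was not tested.

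Among 9 other genes (receptors, kinases and the hormone gene Gh) 1 fell and none rose, against 2.60% and 2.89% of all genes. The median of this list was 0.18. Egfr, the epidermal growth factor receptor and a growth hormone-dependent gene of liver, read 5279 to 18792 in BKS and 1207 to 5018.5 in db/db (log2 fold change -1.83, SE 0.43, limma adjusted p = 0.0246). On the deposited scale its groups did not overlap, and after normalization they did. The call was lost without BKS 1, 2 or 3 or db/db 3 or 4 (adjusted p from 0.0545 to 0.0696), without the trend (0.106), with robust eBayes (0.119) and in the high 18S arrays alone (0.0679), with 2.14e-04 the lowest over the alternatives. The 7 Egfr probe sets ran from -1.97 to 0.14. The receptors Igf1r (0.50), Igf2r (0.25) and Insr (-0.15) were not called.

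Of 17 other STAT and feedback genes 2 fell and none rose, against 2.60% and 2.89% of all genes, with a median of 0.02. Both were suppressors of cytokine signalling, the family of Cish and Socs2. Socs3, which STAT3 and STAT5 induce, read 1529, 1455, 611, 1382 and 797 on BKS 1 to 5 and 503, 276, 106 and 197 on db/db 1 to 4. All db/db arrays were below all BKS arrays (log2 fold change -2.11, SE 0.38, limma adjusted p = 0.00516). Its 3 probe sets ran from -2.22 to -1.97. Socs4, a family member with less known targets, was at -1.07 (SE 0.22, adjusted p = 0.0123), with probe sets from -1.07 to 0.14. In the low 18S arrays alone neither was called (adjusted p = 0.112 and 0.188), and with the probe set of largest variance neither passed (0.135 and 0.630). Socs4 was also lost without the trend (0.0587) and with averaged probe sets, where it stood at -0.40 (adjusted p = 0.483). Socs1, Socs5, Socs6 and Socs7 were not called (0.12, 0.23, 0.61 and -0.61).

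Liver regulators that act beside STAT5 and BCL6 moved in both directions. Of 13 measured genes 3 fell and 2 rose, against 2.60% and 2.89% of all genes, with a median of -0.28. The forkhead factor Foxa1 fell by 2.10 on the log2 scale (SE 0.25, limma adjusted p = 2.45e-04), from 2203 to 4117 in BKS to 419 to 1006 in db/db. Foxa3 fell by 0.79 (SE 0.16, adjusted p = 0.0120), and missed the threshold under median centring (0.108), without the trend (0.0753) and in the low 18S arrays alone (0.214). Onecut1, a factor that growth hormone induces, fell by 1.22 (SE 0.30, adjusted p = 0.0310). The call of Onecut1 was lost without BKS 1, 2, 4 or 5 or db/db 3 or 4 (adjusted p from 0.0613 to 0.0965), by the most variable probe set (0.0910), averaged probe sets (0.0551), no trend (0.105), array weights (0.0720) and in the low 18S arrays alone (0.391). Its lowest adjusted p over the alternatives was 0.00236.
The rises were those of Trim24 and Tox. Trim24, a coregulator of nuclear receptors, read 374 to 586 in BKS and 1318 to 1694 in db/db (log2 fold change 1.75, SE 0.16, adjusted p = 2.55e-05), and the groups did not overlap. Of its 3 probe sets (0.58 to 1.75) 1 was called. Tox, a female-biased nuclear factor of mouse liver, was at 1.32 (SE 0.29, adjusted p = 0.0161), lost without db/db 1, 2 or 3 (0.0513 to 0.0665), by the most variable probe set (0.207), with the replicate number as a block (0.0598), and in fits of the low 18S arrays (0.0634) or the high ones (0.365). Its lowest adjusted p over the alternatives was 0.00696. Cux2, the female-biased repressor that growth hormone controls, was at 0.21 (SE 0.41, adjusted p = 0.853), and Hnf4a, a partner of STAT5B in male liver, at -0.35 (SE 0.12, adjusted p = 0.125).

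Genes whose liver levels are known to follow the male or female pattern of growth hormone made up the lists with the most calls. These lists were drawn up with results of these data known, so their direction is no independent evidence. Of 14 measured male-biased genes 12 fell and none rose, against 2.60% and 2.89% of all genes. The male-biased genes had a median log2 fold change of -3.22 (-2.52 within the low and -3.68 within the high 18S arrays). The steroid dehydrogenase Hsd3b5 read 6526 to 18294 in BKS and 7.9 to 69 in db/db (limma adjusted p = 2.97e-08). The oxysterol hydroxylase Cyp7b1 was at -3.26 and Serpina12, which encodes vaspin, at -4.51. The 3 Cyp7b1 probe sets ran from -3.80 to -0.33, and 2 were called.
Of 22 measured female-biased genes 17 rose and none fell, against 2.89% and 2.60% of all genes. The median of the list was 3.51 (3.16 and 4.21 within the low and high 18S arrays). Cyp2b9, a cytochrome P450, read 44.2 to 176 in BKS and 8039.9 to 13491 in db/db. The steroid hydroxylase Cyp17a1 rose by 3.60 (SE 0.18, adjusted p = 1.51e-07) and the thioesterase Acot3 by 5.75.
Not all sex-biased genes were called. The male-biased Cyp4a12a (-0.84, limma adjusted p = 0.0863) and Cspg5 (-0.23) missed the threshold. So did the female-biased Cyp3a44 (0.11), Cyp3a16 (0.04), Prom1 (1.46), Ntrk2 (0.65) and Tox3 (-0.31). Of these, Cyp4a12a, Prom1 and Ntrk2 had an unadjusted limma p under 0.05 (0.00647, 0.00808 and 0.0243), in the direction of their lists.

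Lipid genes that loss of STAT5 or the presence of BCL6 is known to affect were the last list. Of 12 measured genes 6 rose and none fell, against 2.89% and 2.60% of all genes. The median of the list was 1.17 (1.44 and 1.48 within the low and high 18S arrays). Vldlr, the very low density lipoprotein receptor, read 59.4 to 106 in BKS and 1170 to 2670 in db/db (log2 fold change 4.04, SE 0.25, limma adjusted p = 1.27e-06). Its 6 probe sets ran from 0.97 to 4.04, and 5 were called. The fatty acid transporter Cd36 was at 4.69 and the fatty acid hydroxylase Cyp4a14 at 5.89, both also in the female-biased list. Pparg, the nuclear receptor of fat storage, was at 1.46 (SE 0.26, adjusted p = 0.00439). Pdk4 (0.97) and Fgf21 (1.04) did not pass. Of the 12 genes 11 had a positive fold change. The exception was Lepr, the gene mutated in db/db, which was not called (-0.87, SE 0.41, limma adjusted p = 0.290).

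**Figure D4:**
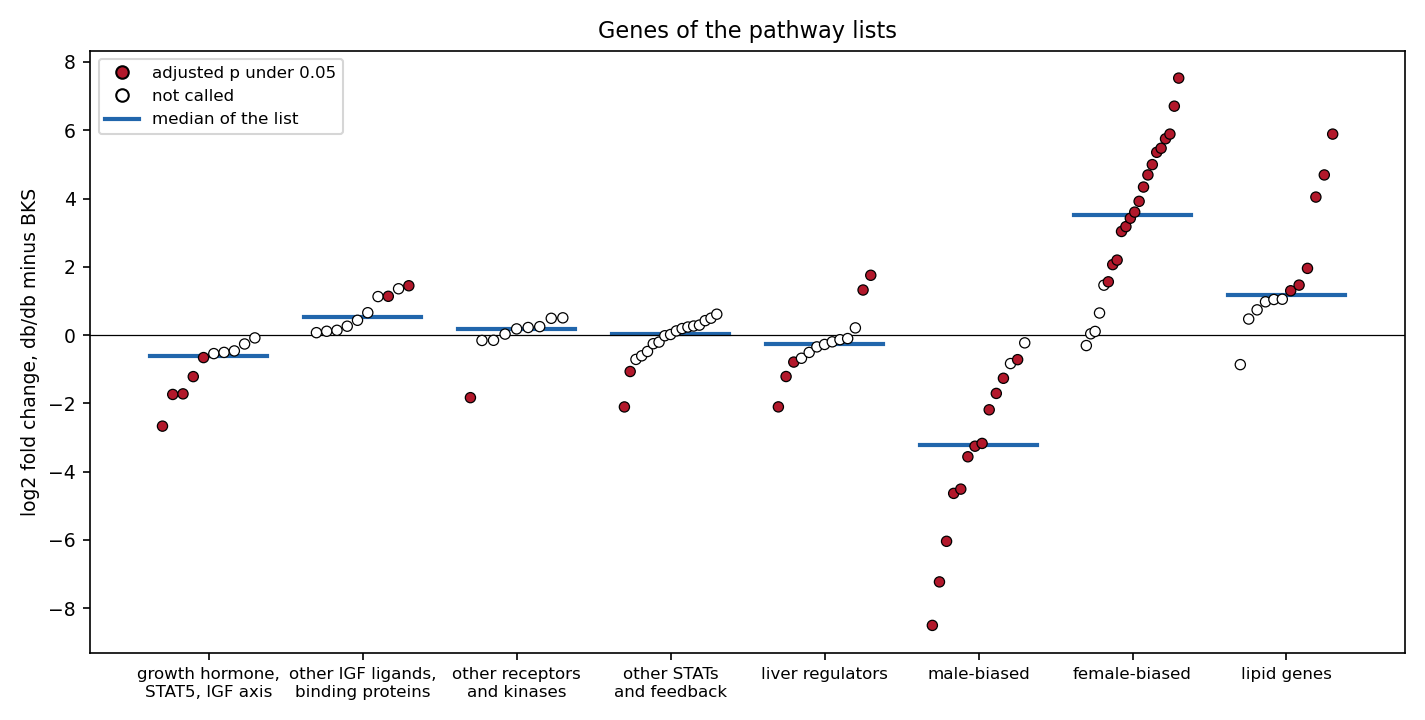
Log2 fold change (db/db minus BKS) of each measured gene, by list, from the lowest to the highest in each. Filled points have adjusted p under 0.05 over all genes, open points are not called, and blue lines give the median of each list. The 10 axis genes all lie below 0, the male-biased list has its median at -3.22 and the female-biased list at 3.51.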

How the data were processed

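Biotin-labelled RNA was hybridised to single-colour Affymetrix arrays, per the labels' protocols. The deposited file holds 1 linear intensity per probe set for 9 arrays. The trimmed mean (2% at each end) was 500.003 to 500.005 on every array, so the deposited intensity values had been scaled. The software is not given in the sources used here, and the table has no detection calls. Values were transformed as log2(value + 16) and quantile normalized. Genes were named from the platform annotation, from 34945 probe sets with 1 symbol. The 932 with several symbols, the 9160 not listed and 64 controls were left out, and genes without a probe set of their own were not analysed here. Each gene was represented by its brightest probe set over all arrays, kept throughout the alternatives except those on the probe set rule.

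Tests used limma 3.58.1 in R 4.3.3 (lmFit and eBayes with trend, group as the only term) with Benjamini-Hochberg adjustment and a threshold of 0.05. Of all genes 526 rose and 473 fell, and 3208 had an unadjusted p under 0.05. On simulated data for this comparison (18193 genes) 13.1% of 1.5-fold, 50.0% of 2-fold and 91.2% of 4-fold changes were recovered, and 2.75% of calls were false.

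The members and lists were chosen with earlier results of these data known. Named are all members and, of each other list, called genes, up to 3 per direction by adjusted p. Pparg and list members that were not called are named as examples, chosen after their values were seen. The 18S split was known from earlier work on these data. Other markers were checked: endothelial, lymphocyte and adipocyte lists had no called gene (median log2 fold change 0.02, -0.33 and 0.03), and of 4 pancreatic genes Cela1 fell by 1.45 on the log2 scale. The alternatives are given in the closing section.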

Additional observations from a re-analysis of the deposited data

Results flagged for a closer look

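Member probe sets and called genes of the other pathway lists, up to 3 per direction by adjusted p, were checked in each genotype. Other named genes, such as Pparg, were not checked. Of the 86 groups of arrays checked 4 had an array far from the others, where chance gives about 1 in 20. No member probe set was among them. Foxa3 on BKS 3 was lowest at 11.01 on the normalized log2 scale (next 11.50). Hsd3b5 on BKS 2 was lowest at 12.79 (next 13.75), and on db/db 1 highest at 6.46 (next 4.76). Cd36 on BKS 4 was lowest at 5.65 (next 7.90).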

How the results depend on the processing

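Of 10 members 5 were called lower, and the count was 4 to 5 with 1 array left out. It was 2 with averaged probe sets and without the intensity trend (Igfbp2 and Socs2 both times), and 1 in the low 18S arrays alone. Of the member probe sets 5 were called lower (5 to 6 with 1 array left out), 8 with dim probe sets left out, 1 without the trend and 2 in the low 18S arrays alone. No member was called higher under any alternative (0 to 0 with 1 array left out, for genes and for probe sets). Over all genes, higher and lower calls numbered 526 and 473. They were 323 and 212 under median centring, 254 and 212 without the trend, 216 and 220 in the low and 241 and 224 in the high 18S arrays alone. With 1 array left out they ran from 309 to 519 and from 283 to 434, the lowest without db/db 3. Lower calls were 260 with the probe set of largest variance, 273 with averaged probe sets and 751 with 18S as a block. Stat5a turned to 0.14 with its probe set of largest variance. Igf1 turned to 0.16 in the low 18S arrays alone and to 0.0157 without db/db 4 (-0.22 to 0.02 with 1 array left out). None of these reversed values was called. The causes of these shifts were not tested. Correlations of deviations between samples of equal replicate number were -0.07 to 0.17 over 4 numbers. Samples of unequal number were not correlated, so these values cannot decide whether equal numbers paired the samples. With the replicate block 5 members were called lower and 596 and 550 genes higher and lower. Of the genes named, the block ended the call of Tox. With 5 and 4 arrays, changes of 2-fold or less are often missed.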

Other observations

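BKS 3 was the lowest or highest BKS array in several genes of the axis, an observation made after the values were seen, in genes picked for it. Some array must be the extreme for each gene, and by the check for far-lying arrays BKS 3 was not set apart in any member probe set. It had the lowest Cish (496, others from 1317), Socs3 (611, others from 797) and Onecut1 (489.5, others from 908) of the 5 BKS arrays. It also had the highest Bcl6 (2516, others up to 1877), Stat5a (1113, others up to 689) and Stat5b (1402, others up to 1129). Its deposited signal of Ghr (21613.5) and Igfbp2 (14652.5) lay within the range of the other BKS arrays. For Socs2 it read 999, beside 972 on BKS 5.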
